A study of Homo sapiens with 148 samples.

Results

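The GATA factors are 6 transcription factors, GATA1 to GATA6, and they were described here by their RNA at each stage of a differentiation of human embryonic stem cells (hESC) towards pancreatic islet organoids. The members were taken by name from a table of mean RNA-seq values, which holds 49085 gene names and lists each of the 6 once. All groups came from H9, an established hESC line with the genotype given as WT, and the labels list 12 RNA-seq samples, 2 for each of 6 stages, among 148 samples in all. The stages are undifferentiated hESC, definitive endoderm (DE, collected at day 4), primitive gut tube-like cells (PGT, day 7), pancreatic progenitors (PP, day 14), a stage labelled PH that the study's text does not define, and the final organoids (SC-β organoids, day 35), whose label stands for β cells made from stem cells. Suspended spheroids were treated in steps with Activin A and CHIR99021, then KGF, then KGF with Sant1, retinoic acid, LDN193189 and PdBU, then Sant1, retinoic acid, XXI, betacellulin, Alk5i II and T3, and at the end Alk5i II and T3, with Y27632 in several steps. The organoids hold several cell types, so a stage mean is an average over all cells present, and in such bulk samples fewer cells of a type and less RNA per cell cannot be told apart.

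GATA factors are zinc finger proteins that bind DNA at short sites around the letters GATA. GATA1, GATA2 and GATA3 are known mainly from blood, where GATA1 drives red cell and platelet precursors, GATA2 serves blood stem and progenitor cells and endothelium, and GATA3 serves T cells, while GATA2 and GATA3 also act in trophoblast and in some inhibitory neurons. GATA4, GATA5 and GATA6 are known mainly from endoderm, heart and gut, and GATA4 and GATA6 are required for normal formation of the human pancreas.

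The values are TPM (transcript abundance scaled to a common total), a level that is corrected for gene length. Levels may thus be compared between genes within a stage. Between stages a level also depends on the share of the total that other genes take. Among these are the structural RNAs (RMRP, RPPH1, Metazoa_SRP and the RN7 genes), with 31.8% of the total in DE and 50.9% in PH. The authors deposited only the mean over the replicates of each stage. The spread between replicates, the depth of each sample and any test between stages are therefore not given, and every value below is the authors' mean. Changes between stages are given as log2 ratios after adding 1 TPM to both means, and a change is counted from 2-fold, a fixed size and not a test. A name under 1 TPM at both stages cannot reach this size. The shares of all names given below therefore include names that could not be counted. The labelled stages were compared with their marker genes. All 12 listed DE genes were at 1 TPM or more in DE, with CXCR4 at 350.3 TPM and EOMES at 172.3 TPM, and all 12 listed gut tube and early pancreas genes were at 1 TPM or more in PP, although PDX1 was only at 3.17 TPM there. Reaching 1 TPM does not itself mark DE, since 11 of its 12 genes did so in hESC as well. Nor does it mark PP, since 8 of the 12 gut tube and early pancreas genes did so in PGT and 11 in SC-β organoids. In PH, FOXA2 was at 1.17 TPM and PDX1 at 0.0173 TPM, both lower than in PP.

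On GRCh38 (GENCODE version 44), GATA1 (ENSG00000102145.16) lies on chromosome X from 48786540 to 48794311 on the forward strand. GATA2 (ENSG00000179348.13) lies on chromosome 3 from 128479427 to 128493201 on the reverse strand. GATA3 (ENSG00000107485.18) lies on chromosome 10 from 8045378 to 8075198 on the forward strand. GATA4 (ENSG00000136574.19) lies on chromosome 8 from 11676959 to 11760002 on the forward strand. GATA5 (ENSG00000130700.7) lies on chromosome 20 from 62463497 to 62475995 on the reverse strand. GATA6 (ENSG00000141448.11) lies on chromosome 18 from 22169589 to 22202528 on the forward strand. The members are thus on separate chromosomes, and none overlaps another member. GATA2, GATA3 and GATA6 each overlap an annotated antisense transcript that has an entry of its own in the table.

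GATA6, the member with the highest level in hESC, is a factor of early endoderm and pancreas. Its level was 2.30 TPM in hESC, 47.5 TPM in DE, 30.0 TPM in PGT, 11.6 TPM in PP, 0.848 TPM in PH and, at the end, 11.9 TPM in SC-β organoids. DE held the highest level, PP and SC-β organoids were nearly level with each other, and PH held the lowest. In DE, GATA6 was above 87.6% of the 21619 gene names at 1 TPM or more, and in SC-β organoids above 59.9% of 24571.

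GATA4, the closest partner of GATA6 in endoderm, was at 0.734 TPM in hESC, 47.5 TPM in DE, 29.6 TPM in PGT, 10.2 TPM in PP, 0.682 TPM in PH and, at the end, 2.53 TPM in SC-β organoids. Its levels matched those of GATA6 from DE to PP and parted from them in SC-β organoids. From DE over PGT to PP the ratio of GATA4 to GATA6 went from 1.00 over 0.988 to 0.883, against 0.213 in SC-β organoids and 0.319 in hESC. SC-β organoids kept 5.33% of the highest GATA4 level and 25.0% of the highest GATA6 level. In PH the ratio was 0.804, with both genes below 1 TPM as deposited.

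GATA5, which acts in heart and gut endoderm, was the one member with its highest level in PGT. It was at 0.141 TPM in hESC, 4.98 TPM in DE, 20.4 TPM in PGT, 1.09 TPM in PP, 0.264 TPM in PH and, at the end, 4.19 TPM in SC-β organoids. The PGT level was 4.10 times that of DE and 18.7 times that of PP, the steepest single change of a member between successive stages after DE. GATA5 reached 0.690 times the GATA4 level in PGT and 1.66 times the GATA4 level in SC-β organoids.

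GATA3, the T cell and trophoblast factor, followed GATA4 and GATA6 in having its highest level in DE. It was at 0.262 TPM in hESC, 23.7 TPM in DE, 10.5 TPM in PGT, 4.45 TPM in PP, 0.672 TPM in PH and, at the end, 6.42 TPM in SC-β organoids. GATA3 was lowest in hESC, whereas GATA6 was lowest in PH.

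GATA2, the blood progenitor and endothelial factor, was the one member with its highest level in SC-β organoids. It was at 0.254 TPM in hESC, 2.47 TPM in DE, 4.45 TPM in PGT, 0.911 TPM in PP, 0.746 TPM in PH and, at the end, 13.3 TPM in SC-β organoids. PP and PH differed little, and SC-β organoids stood 14.6 times above PP. GATA3 was 9.63 times GATA2 in DE, 2.35 times in PGT and 4.89 times in PP, whereas in SC-β organoids GATA2 was 2.07 times GATA3.

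GATA1, the red cell and platelet factor, did not exceed 0.0836 TPM at any stage, and it was listed at 0 in PGT and PH. Its other levels were 0.0443 TPM in DE, 0.0512 TPM in PP and, in SC-β organoids, 0.0561 TPM. No fold is drawn from such values. With GATA1 below it throughout, 5 members were at 1 TPM or more in DE, PGT and SC-β organoids, 4 in PP, 1 in hESC and 0 in PH. These counts hold for the values as deposited and depend on the scaling. Without the structural RNAs in the totals, GATA2 (1.52), GATA3 (1.37), GATA4 (1.39) and GATA6 (1.73) were above 1 in PH. GATA4 (1.20) was then above 1 in hESC as well, and GATA2 (1.58) in PP.

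**Figure D1:**
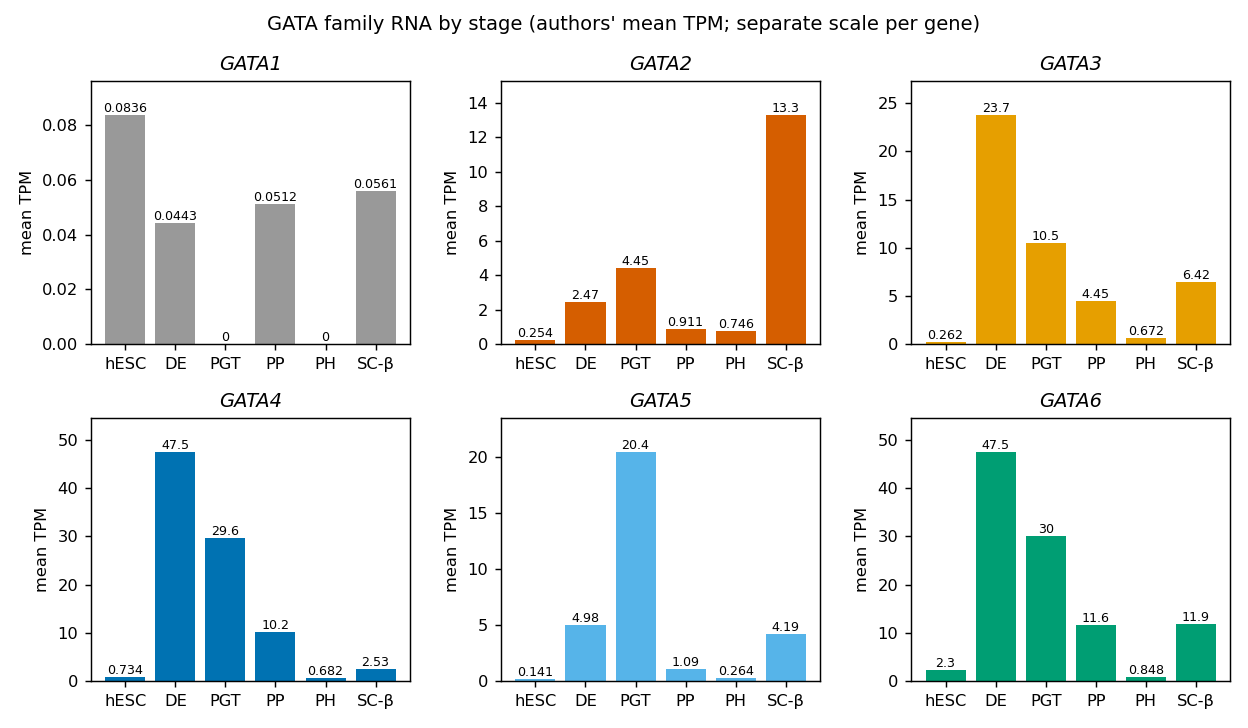
Mean TPM of each GATA gene (vertical axis, linear from 0, a separate scale per gene) at the 6 stages (horizontal axis), as deposited by the authors, with no error bars because the values are means over replicates. GATA3, GATA4 and GATA6 are highest in DE, GATA5 in PGT at 20.4 TPM and GATA2 in SC-β organoids at 13.3 TPM, while GATA1 stays below 0.1 TPM.

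The summed level of the 6 genes was 3.78 TPM in hESC, 126.2 TPM in DE, 94.9 TPM in PGT, 28.3 TPM in PP, 3.21 TPM in PH and, at the end, 38.4 TPM in SC-β organoids. From DE to PP the sum was mostly GATA4, GATA5 and GATA6, which made up between 79.2% (DE) and 84.3% (PGT). In SC-β organoids these 3 genes made up 48.5%, and GATA1, GATA2 and GATA3 made up 51.5%. Among single members, GATA2 made up 34.6% of the sum in SC-β organoids against 3.22% in PP, and GATA4 made up 6.60% against 36.1%. GATA6 held between 30.9% of the sum (SC-β organoids) and 40.9% (PP) at the 4 stages from DE on other than PH. These shares do not depend on the scaling of a stage, since every gene of a stage is divided by the same number.

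**Figure D2:**
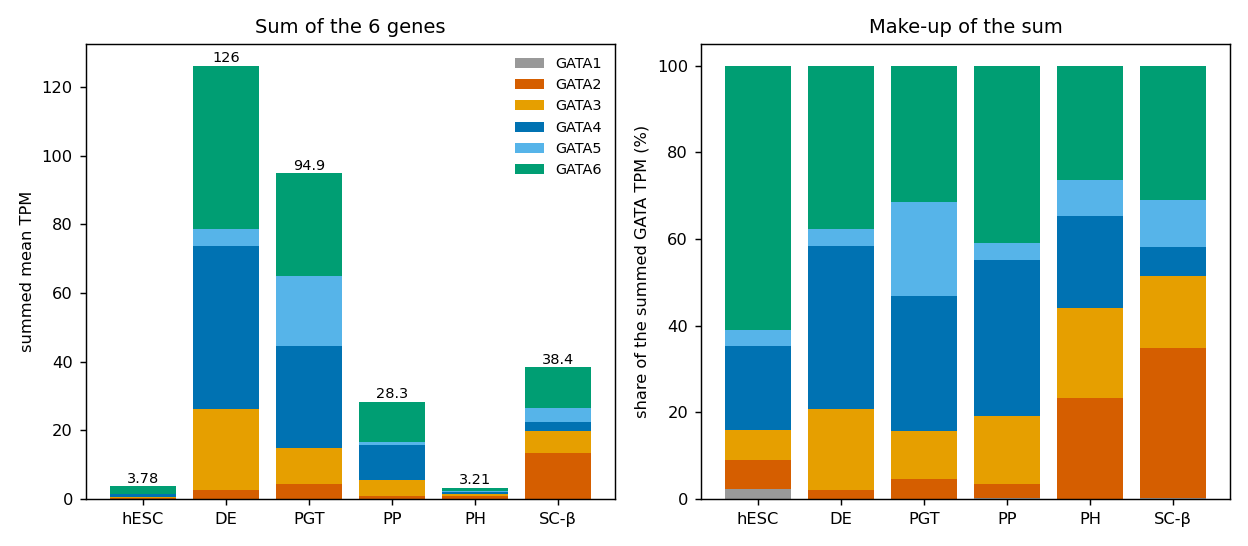
The left panel stacks the mean TPM of the 6 GATA genes at each stage, and the right panel shows the same values as a share of their sum in percent. The sum is highest in DE at 126.2 TPM, and the share of GATA2 is widest in SC-β organoids, where that of GATA4 is 6.60%.

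The step from hESC to DE asks which members come up as pluripotent cells become endoderm under Activin A. Of the 6 members, 5 were at least 2-fold higher in DE and 0 were lower, against 12.9% of all names higher and 2.55% lower. Among the 22514 names at 1 TPM or more in either stage, 6352 were higher. The log2 ratio was 4.81 for GATA4, 4.29 for GATA3, 3.88 for GATA6, 2.39 for GATA5 and 1.47 for GATA2. GATA4 and GATA3 thus had wider differences than GATA6, which started from a higher level in hESC. The median log2 ratio was 0.12 over all names and 0.58 over the 22514 names at 1 TPM or more in either stage, and each of the 5 members was above both.

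Other endoderm genes were higher in the same step. Of the 12 listed DE genes, which include the pioneer factors FOXA1 and FOXA2 and the endoderm regulator SOX17, 11 were at least 2-fold higher in DE and 0 lower, with a median log2 ratio of 3.85. SOX17 had a log2 ratio of 4.52 and FOXA2 of 3.82, close to that of GATA6. CXCR4, a chemokine receptor used to sort endoderm cells, had a log2 ratio of 5.54. Of the 12 gut tube and early pancreas genes, 4 were higher and 1 was lower, with a median of 0.43, and HNF4A, a factor of gut and liver, was at 19.7 TPM in DE against 0.176 TPM in hESC. The listed heart and visceral mesoderm markers had 2 of 13 higher and 1 lower. Those that were higher were TBX20, a heart factor, and MYL7, an atrial myosin light chain that was at 109.96 TPM in DE against 9.01 TPM in hESC. The marker that was lower was TNNT2, at 0.209 TPM in DE against 6.71 TPM in hESC. The heart markers NKX2-5 (0.171 TPM), MYH6 (0.0940 TPM) and NPPA (0.772 TPM) were under 1 TPM in DE.

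The step from DE to PGT, in which Activin A was withdrawn and KGF added, separated the members. Only GATA5 was at least 2-fold higher, with a log2 ratio of 1.84, and only GATA3 was at least 2-fold lower, at -1.11, against 2.3% of all names higher and 4.92% lower. GATA4 (-0.66) and GATA6 (-0.65) were lower by nearly the same amount and less than 2-fold, and GATA2 was higher at 0.65. The count for GATA3 rests on a value close to the limit. It was -0.97 when stages were put on a common scale through the median of their gene ratios (the median-ratio rescaling).

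In the same step, 8 of the 12 DE genes were at least 2-fold lower and 2 were higher, with a median log2 ratio of -2.62. EOMES, a T-box factor that acts upstream of endoderm genes, went from 172.3 to 0.353 TPM, and SOX17 from 96.1 to 5.88 TPM, so GATA4 and GATA6 kept more of their DE level than either. The genes that were higher were FOXA1 (log2 ratio 1.56) and HHEX (1.59), a foregut factor. Of the 8 extraembryonic endoderm and liver genes, 7 were higher and 0 lower, with a median of 3.10, and TTR, a thyroid hormone carrier, reached 943.2 TPM. Of the 12 gut tube and early pancreas genes, 7 were higher and 1 was lower, with a median of 1.36. HNF4A reached 33.7 TPM in PGT.

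Markers of trophoblast and amnion, in which GATA2 and GATA3 are also known to act, were also higher in PGT. Of 12 markers, 10 were at least 2-fold higher in PGT than in DE and 0 lower, and their summed level went from 31.6 TPM to 625.4 TPM. IGFBP3 alone made 19.1 TPM of the sum in DE and 304.3 TPM of that in PGT. GABRP, a GABA receptor subunit found in amnion, reached 129.5 TPM, HAND1 50.4 TPM and VTCN1 25.6 TPM. The defining trophoblast hormone subunit CGA was at 0.579 TPM and the trophoblast factor ELF5 at 0.153 TPM. GATA2 was higher and GATA3 lower in the same comparison, and the part of these markers in either value was not tested.

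The step from PGT to PP, under retinoic acid, Sant1 and KGF, was the one with all 5 expressed members lower by at least 2-fold. In PP 5 members were thus lower and 0 higher, against 3.25% of all names lower and 2.74% higher. The log2 ratio was -3.36 for GATA5, -1.51 for GATA2, -1.45 for GATA4, -1.30 for GATA6 and -1.07 for GATA3. GATA3 was near the limit, at -0.996 after the median-ratio rescaling, which is just under 2-fold. The median over all names was 0. Of the 12 DE genes, 7 were also lower and 0 higher, with a median of -1.56, and HHEX went from 137.3 to 8.03 TPM. The gut tube and early pancreas genes went partly the other way, with 5 of 12 higher and 2 lower and a median of 0.32. SOX9, a progenitor factor, was at 23.7 TPM in PP against 5.90 TPM in PGT, while HNF4A was at 3.90 TPM. Of the trophoblast and amnion markers, 6 were lower and 1 higher, and of the liver genes 5 were lower and 0 higher.

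**Figure D3:**
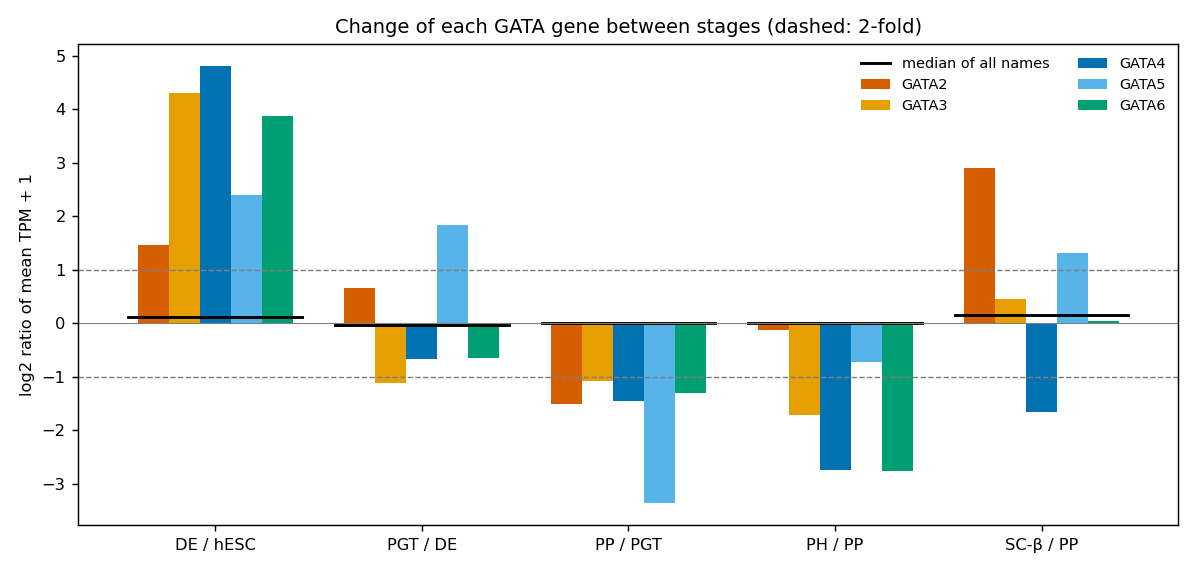
Bars give the log2 ratio of mean TPM plus 1 between the first and the second named stage for GATA2 to GATA6, short black lines the median over all 49085 names, and dashed lines the 2-fold limits. All 5 bars are above the upper limit for DE against hESC and below the lower limit for PP against PGT, and for SC-β organoids against PP GATA2 (2.90) and GATA4 (-1.67) lie on opposite sides.

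In SC-β organoids against PP the members differed in direction. GATA2 (log2 ratio 2.90) and GATA5 (1.31) were at least 2-fold higher, and GATA4 (-1.67) was at least 2-fold lower, against 10.6% of all names higher and 0.939% lower. GATA3 was at 0.44. GATA6 was at 0.03, and this sign is not fixed, since it was -0.22 with the median-ratio rescaling, -0.15 without the structural RNAs in the totals and -0.21 without the 100 most abundant genes. The median was 0.16 over all names and 0.45 over those at 1 TPM or more in either stage.

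The listed genes around this difference were also mixed. Of the 12 gut tube and early pancreas genes, 0 were at least 2-fold higher and 1 lower in SC-β organoids than in PP, and NKX6-1, a β-cell factor, had a log2 ratio just under the limit, at 0.99. FOXA2 was at 5.44 TPM in SC-β organoids and 13.2 TPM in PP, so it was lower together with GATA4, with a log2 ratio of -1.14. Of the DE genes, 1 was higher and 2 lower. Of the 8 liver genes, 4 were higher and 0 lower, with ALB at 39.3 TPM in SC-β organoids.

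Endothelial and blood markers were compared beside the high GATA2 of SC-β organoids. The summed level of 10 endothelial markers was 14.5 TPM there and 5.11 TPM in PP, with 4 markers at 1 TPM or more. The defining endothelial genes PECAM1 (0.00522 TPM), CDH5 (0.0955 TPM) and EMCN (0.335 TPM) were below 1 TPM in SC-β organoids, while ERG was at 5.18 TPM, KDR at 3.89 TPM, ESAM at 1.53 TPM and TIE1 at 1.03 TPM. The median log2 ratio of the 10 markers to PP was 0.46, with 1 at least 2-fold higher (ERG) and 0 lower, and it was 1.19 with a pseudocount of 0.1 TPM. Of 17 blood lineage markers in the table, 2 were at 1 TPM or more and 6 were listed at 0, with PTPRC at 0.0451 TPM and SPI1 at 0.0463 TPM. The T cell markers were at 0.737 TPM in sum, with CD3D, CD3E and CD3G listed at 0. Heart and visceral mesoderm markers were higher, with 6 of 13 at least 2-fold above PP and 0 below, and a sum of 258.9 against 25.7 TPM. PDGFRA, a receptor of mesenchyme, was at 205.3 TPM and HAND2 at 23.6 TPM. Trophoblast and amnion markers had 6 of 12 higher and 1 lower, with ELF5 at 8.11 TPM and CGA at 0.360 TPM. The part of endothelial, mesoderm, trophoblast or amnion markers in the GATA2 level was not tested.

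PH and hESC had the lowest summed GATA levels, and their order depends on the scaling. As deposited the sum was 3.21 TPM in PH and 3.78 TPM in hESC, but without the structural RNAs in the totals it was 6.54 in PH and 6.19 in hESC. Against PP, 3 members were at least 2-fold lower in PH and 0 were higher, against 5.73% of all names lower and 5.14% higher. GATA6 had a log2 ratio of -2.76, GATA4 of -2.74 and GATA3 of -1.71. GATA5 was at -0.73 and passed 2-fold with a pseudocount of 0.1 TPM (-1.71) or without the 100 most abundant genes (-1.05). GATA2 was at -0.13. As with GATA4 and GATA6, FOXA1 (-3.18) and FOXA2 (-2.71) were lower in PH, and 10 of the 12 gut tube and early pancreas genes were lower and 1 higher. The gene that was higher was PTF1A, at 7.61 against 1.02 TPM, a factor of pancreatic progenitors that also acts in inhibitory neurons. Markers of inhibitory neurons, in which GATA2 and GATA3 can act, had 4 of 7 higher in PH and 0 lower. Their sum was 76.3 TPM against 5.23 TPM in PP. Those that were higher were GAD1, GAD2, SLC32A1 and SLC6A5. TAL2 (0.683 TPM), FOXN4 (0.278 TPM) and SOX14 (0.123 TPM) were low in PH, with log2 ratios of -0.05, 0.03 and 0.04. SLC6A5, the glycine transporter of inhibitory neurons, was at 24.7 TPM and GAD2, an enzyme of GABA synthesis, at 22.6 TPM. GATA2 and GATA3 themselves were both under 1 TPM as deposited, but not without the structural RNAs in the totals.

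Across the whole differentiation, 5 members were at least 2-fold higher in SC-β organoids than in hESC and 0 lower, against 22.2% of all names higher and 3.7% lower. Among the 25644 names at 1 TPM or more in either stage, 10880 were higher. The log2 ratio was 3.51 for GATA2, 2.56 for GATA3, 2.19 for GATA5, 1.96 for GATA6 and 1.03 for GATA4. GATA4 was at 0.73 with the median-ratio rescaling, below 2-fold, and the median over names at 1 TPM or more in either stage was 0.83. In DE, by contrast, GATA2 had the narrowest difference from hESC, and the widest was that of GATA4 with a pseudocount of 1 TPM but that of GATA3 with 0.1 TPM (6.04 against 5.84 for GATA4). This comparison and that of DE share the hESC column.

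**Figure D4:**
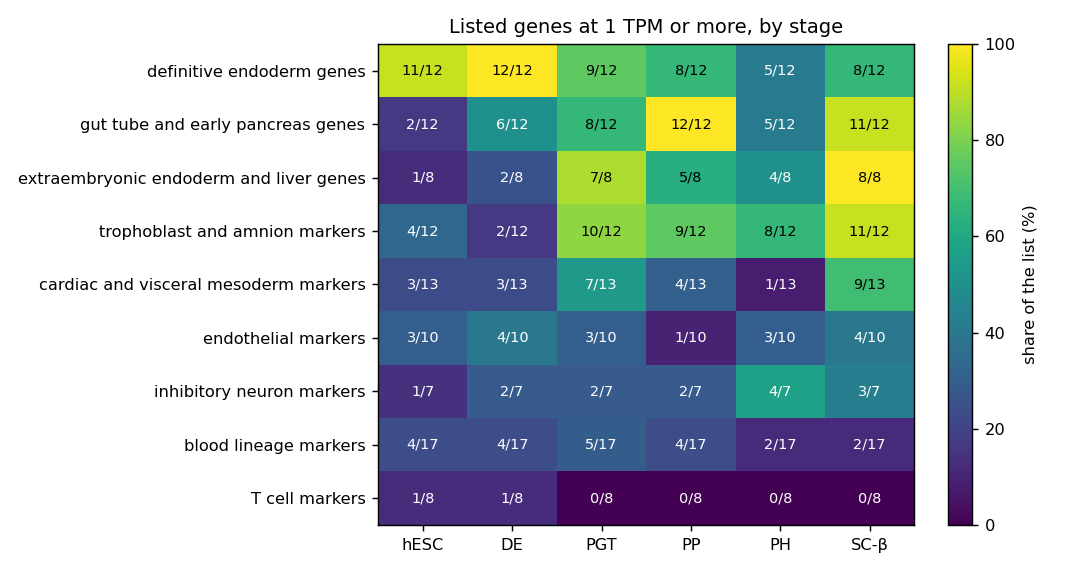
Each cell gives how many genes of a list (rows) were at 1 TPM or more at a stage (columns), of those in the table, and its colour the same as a percent. The DE list is complete in DE (and 11 of 12 in hESC). The gut tube and early pancreas list is complete in PP (and 11 of 12 in SC-β organoids). In PH 4 of 7 inhibitory neuron markers pass, and few blood or T cell markers pass at any stage.

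The antisense transcripts offer another readout at the GATA loci. Divergent long noncoding RNAs start beside GATA2, GATA3 and GATA6 and are transcribed from the opposite strand. RefSeq places the start of GATA6-AS1 at 22168968 on chromosome 18, 621 bases from that of GATA6, and the start of GATA2-AS1 at 128489203 on chromosome 3, 673 bases from the nearest GATA2 start. The outermost start of GATA3-AS1 is at 8053484 on chromosome 10, and 119 bases lie between it and the next annotated GATA3 exon. The sequences between or beside these starts are shown because both transcripts of a pair begin around them. They were taken from RefSeq (GRCh38.p14), read 5′ to 3′ on the strand of the GATA gene, and capitals mark the letters CCAAT or their reverse complement ATTGG.
GATA6, 250 bases before its start (chr18:22169339-22169588, forward strand): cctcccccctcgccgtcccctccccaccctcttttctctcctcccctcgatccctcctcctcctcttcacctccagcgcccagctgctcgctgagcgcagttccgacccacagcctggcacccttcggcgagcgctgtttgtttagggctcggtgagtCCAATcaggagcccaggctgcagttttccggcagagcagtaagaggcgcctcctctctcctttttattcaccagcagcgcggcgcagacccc
GATA3, the 119 bases up to its exon (chr10:8053485-8053603, forward strand): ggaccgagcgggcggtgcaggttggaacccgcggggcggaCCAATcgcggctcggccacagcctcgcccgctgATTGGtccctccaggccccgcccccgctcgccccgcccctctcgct
GATA2, 250 bases before the start at 128488530 (chr3:128488531-128488780, reverse strand): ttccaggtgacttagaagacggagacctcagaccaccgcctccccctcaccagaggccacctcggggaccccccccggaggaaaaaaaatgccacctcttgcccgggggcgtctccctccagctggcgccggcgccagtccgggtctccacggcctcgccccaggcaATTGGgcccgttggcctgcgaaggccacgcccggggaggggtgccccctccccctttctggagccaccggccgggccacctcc

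The CCAAT letters occurred 2 times in the GATA3 stretch and 1 time in each of the others. On either strand, 32.0% of 35116 RefSeq promoter windows of 250 bases hold them, and the GATA3 stretch is shorter than these windows. The letters were absent before the other GATA2 start (128493201) and the GATA1 start. They were also absent before the GATA3 starts at 8045333, 8051236, 8054688 and 8060457, and occurred 1 time before that at 8049854. The 6-letter GATA motif (the letters GATA with A or T before them and A or G after them) was also searched on both strands, and it was found before 0 of the 10 member start sites in the promoter table, which covers 4 of the 6 members, against 22.3% of all windows. These are matches of letters in short windows only. The stretches were rich in G and C, which made up 64.4% for GATA6, 77.3% for GATA3 and 71.2% for GATA2. The GATA6 stretch overlaps an exon of GATA6-AS1 in GENCODE.

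GATA6-AS1 was at 1.31 TPM in hESC, 21.7 TPM in DE, 17.1 TPM in PGT, 15.4 TPM in PP, 2.25 TPM in PH and, at the end, 9.08 TPM in SC-β organoids. It was highest in DE, as was GATA6, but it was lower by less in PP. The level of GATA6-AS1 was 45.8% of that of GATA6 in DE and 57.2% in PGT, whereas it exceeded GATA6 in PP (132.9%) and PH (264.7%). From PGT to PP the log2 ratio was -0.15 for the antisense transcript and -1.30 for GATA6.

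GATA3-AS1 was listed at 0 in hESC and was at 3.42 TPM in DE, 1.68 TPM in PGT, 1.55 TPM in PP, 0.0230 TPM in PH and, at the end, 1.34 TPM in SC-β organoids. It stayed between 14.4% and 34.7% of the GATA3 level in the stages from DE to PP and in SC-β organoids. From PGT to PP its log2 ratio was -0.07, against -1.07 for GATA3.

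GATA2-AS1 was listed at 0 in hESC and was at 1.33 TPM in DE, 2.87 TPM in PGT, 0.788 TPM in PP, 0.0515 TPM in PH and, at the end, 6.22 TPM in SC-β organoids. Like GATA2 it was highest at the last stage, and against PP its log2 ratio was 2.01 where that of GATA2 was 2.90. Over the 6 stages, Pearson's r of log2(TPM + 1) between a gene and its antisense transcript was 0.98 for GATA2, 0.98 for GATA3 and 0.93 for GATA6. These values describe 6 stage means from the same libraries and are not a test. The labels call the library strand-specific, but whether strand was used in counting is not given in the sources used here, so reads from the overlapping parts of a pair may not have been told apart.

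**Figure D5:**
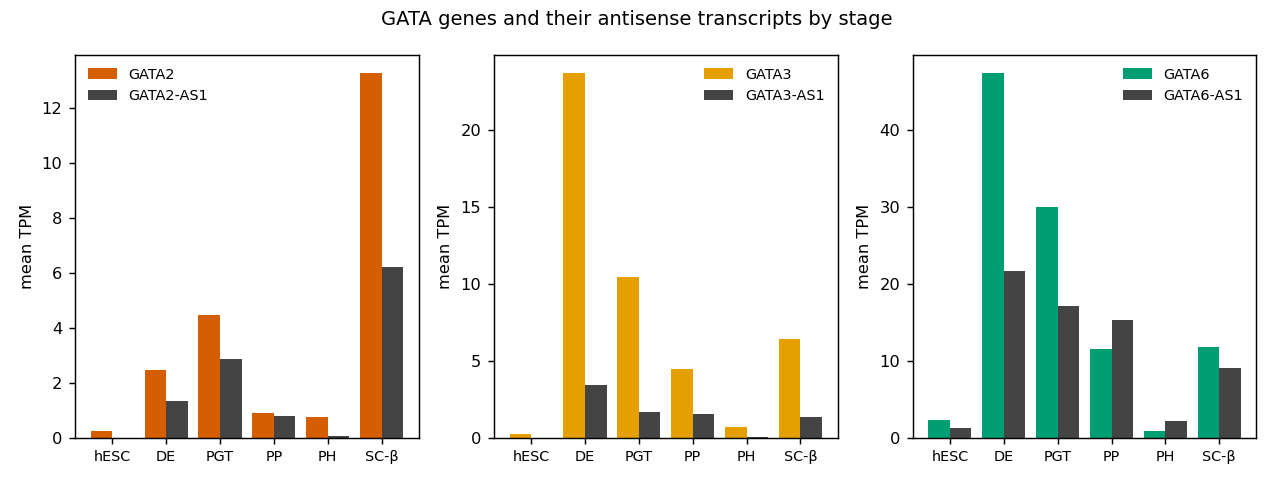
Mean TPM (vertical axis, linear from 0, a separate scale per panel) of GATA2, GATA3 and GATA6 (coloured bars) and of their antisense transcripts (dark bars) at the 6 stages. The antisense bar is below that of the gene except for GATA6-AS1 in PP and PH, where it is 132.9% and 264.7% of the gene.

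The likeness of the members to each other over the 6 stages was described by Pearson's r of log2(TPM + 1), leaving out GATA1. It was 0.97 for GATA3 and GATA6, 0.94 for GATA4 and GATA6 and 0.91 for GATA3 and GATA4, so by this measure these 3 genes form the closest group. Spearman's rho sets GATA5 less apart: for GATA3 it was 0.94 with both GATA5 and GATA6 and 0.89 with GATA4. GATA5 had r between 0.70 and 0.83 with the other 4 genes. GATA2 had r of 0.28 with GATA4, 0.54 with GATA6 and 0.60 with GATA3. The values of GATA2 rest on SC-β organoids. Without that column its r was 0.86 with GATA4, 0.82 with GATA6, 0.84 with GATA3 and 0.98 with GATA5. All points come from the same libraries and totals, and 6 means allow only a description.

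Among 10543 protein-coding names with a single entry and 10 TPM or more at some stage, the 5 most like each member were listed. GATA4 had SLCO2A1, a prostaglandin transporter, at r = 0.997 (0.253 TPM in hESC, 40.9 TPM in DE, 34.9 TPM in PGT, 7.91 TPM in PP, 0.321 TPM in PH and, at the end, 1.90 TPM in SC-β organoids), followed by MED7, HSD17B14, CBX1 and FOXA2 (r = 0.98). GATA6 had PLD2, SMIM10L1, LAMA1, VPS33B and POC1B, and LAMA1, a basement membrane laminin chain, had r = 0.99 with 213.3 TPM in DE and 9.69 TPM in PH. GATA5 had POLR2C, PLEKHA1, PABPC4L, VCAN and ID1, and ID1, a target of BMP signalling, had r = 0.98 with 763.8 TPM in PGT and 79.4 TPM in hESC. GATA3 had AP1G2, RWDD3, CHMP4B, TLK2 and EIF2AK3, and GATA2 had TSC22D2, EHBP1, TRIP11, EIF1B and TFF1. With 6 points, r takes no account of how far a gene moves: the highest and lowest stage of MED7 differed by 0.40 and those of SLCO2A1 by 5.06 on the log2 scale.

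Proteins that work with GATA factors were measured as well. Of 12 listed cofactors, 5 were at least 2-fold higher and 1 lower in DE than in hESC, with a median log2 ratio of 0.79. Of all names, 12.9% were higher and 2.55% lower. The median was 0.12 over all names and 0.58 over those at 1 TPM or more in either stage. ZFPM1 and ZFPM2, the FOG proteins that bind the GATA zinc finger, were at 4.25 and 4.10 TPM in DE against 0.769 and 0.398 TPM in hESC, log2 ratios of 1.57 and 1.87. The gene that was lower was LDB2, a LIM-domain binding protein, at 8.75 against 47.2 TPM. Later steps had fewer cofactors higher: 2 higher and 1 lower from DE to PGT, 1 higher and 0 lower from PGT to PP, and 3 higher and 0 lower from PP to SC-β organoids. The share of all names that were higher was also smaller in these steps, at 2.3%, 2.74% and 10.6% in the same order. The shares lower were 4.92%, 3.25% and 0.939%. The 3 that were higher in SC-β organoids than in PP were LDB2 (log2 ratio 2.78), LMO2 (1.21) and CREBBP (1.18). LMO2, a bridging partner of GATA1 and GATA2 in blood, was at 7.97 TPM in SC-β organoids and 2.87 TPM in PP. TAL1, the blood factor of the same complex, did not exceed 0.0541 TPM at any stage.

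Other genes whose products hold a GATA-type zinc finger differed widely in level, from ZGLP1, at 0.465 TPM in hESC and 5.65 TPM in PGT, to MTA1, at 43.1 TPM in hESC and 94.2 TPM in SC-β organoids. The 9 such genes include GATAD2A, GATAD2B and the MTA genes of the NuRD complex. Of these 9, 6 were at least 2-fold higher and 0 lower in DE than in hESC. Among the 22514 names at 1 TPM or more in either stage, 6352 were higher, and of all names 12.9% were higher and 2.55% lower. The median log2 ratio of the 9 genes was 1.06, against 0.58 over the 22514 names and 0.12 over all names. With the median-ratio rescaling it was 0.59, against 0.02 over all names. From DE to PGT 0 were higher and 0 lower, from PGT to PP 1 was higher and 0 lower, and from PP to PH 0 were higher and 0 lower. Of all names, 2.3%, 2.74% and 5.14% were higher in these comparisons, and 4.92%, 3.25% and 5.73% were lower. The summed level of the 9 genes lay between 218.5 TPM in hESC and 441.2 TPM in DE, so it varied far less over the stages than that of the GATA factors themselves.

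The markers of endothelium and blood were also read in DE, where the members were high. There the summed level of the endothelial markers was 201.7 TPM, of which VWF, the von Willebrand factor, made 191.1 TPM, while PECAM1 was at 0.430 TPM and CDH5 at 0.0984 TPM. In the same column 4 of 17 blood markers reached 1 TPM, with EPOR, the erythropoietin receptor, at 15.0 TPM. The T cell markers summed to 4.03 TPM in DE, beside GATA3 at 23.7 TPM, and LCK made 2.82 TPM of this. CD3E was listed at 0 in DE and CD3D was at 0.247 TPM.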

How the data were processed

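RNA-seq was the assay used. The methods describe removal of ribosomal RNA, while the labels also name a stranded mRNA kit. The authors aligned reads to hg38 with HISAT2 (version 2.2.0, default parameters), computed TPM per gene with StringTie (version 2.1.6) and deposited the mean TPM over the replicates of each stage. The annotation is not given in the sources used here. TPM keeps no read counts, so depth and counting error are unknown, and with 1 mean per stage no test, SD or interval was computed. The samples of the other assays were not analysed here.

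The 50451 entries were summed under 49085 names, of which 231 had more than 1 entry. Log2 ratios used a pseudocount of 1 TPM, which understates changes of low genes, and no fold was given for a gene listed at 0. The 6 comparisons followed the order of the stages, and PH was set against PP. The members and gene lists were chosen with earlier results of these data known. The lists were 12 GATA cofactors, 9 genes with a GATA-type zinc finger, 3 antisense transcripts, 12 DE, 12 gut tube and early pancreas and 8 extraembryonic endoderm and liver genes, and markers of blood (19, of which HBZ and GP9 were not found by name), T cells (8), endothelium (10), trophoblast and amnion (12), inhibitory neurons (8, HELT not found by name) and heart and visceral mesoderm (13). A gene of the blood list and a gene of the inhibitory neuron list are not reported here, and the counts and sums leave them out. The text names the members, for each of them the 5 genes with the highest r, and list genes. Which list genes have their values printed was chosen after the values were seen. Positions are from GENCODE version 44 on GRCh38 and sequences from RefSeq (GRCh38.p14), the same build as hg38. The calculations were tested on simulated data. Software was matplotlib 3.10.9, pandas 2.3.3, scipy 1.17.1 and numpy 2.4.6 under Python 3.11.15.

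The alternatives were a pseudocount of 0.1 TPM, the median-ratio rescaling (size factors from 13938 genes at 1 TPM or more throughout, each gene relative to its geometric mean), totals without the structural RNAs (RMRP, RPPH1, Metazoa_SRP and the RN7 genes) or without the 100 most abundant genes, a 4-fold limit, only members at 1 TPM or more, the highest entry of a repeated name, and for r Spearman's rho and stages left out.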

Additional observations from a re-analysis of the deposited data

How the results depend on the processing

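Of 120 log2 ratios of single members under another pseudocount or scaling, 114 kept their side of 2-fold, 4 fell under it and 2 passed it. The stage with the highest level of each member was the same in all 12 recomputations. With the 4-fold limit, 0 members were higher and 0 lower from DE to PGT, 1 was lower from PGT to PP, 1 was higher and 0 lower from PP to SC-β organoids, and 3 were higher in SC-β organoids than in hESC. The GATA3 difference from DE to PGT fell under 2-fold with the median-ratio rescaling and without the 100 most abundant genes (-0.99), so that 0 members were then lower in that step. The median of all names moved by -0.10 (DE to hESC) and -0.14 (SC-β organoids to hESC) with the rescaling, and by 0.28 and 0.47 with a pseudocount of 0.1 TPM. Of 144 list medians under 2 alternatives, 130 kept their side of 2-fold, 10 passed it and 4 fell under it. Of 30 planned values of r between members, 1 moved by more than 0.2, that of GATA2 and GATA4, which was 0.54 as Spearman's rho. Leaving out PH was among the planned ones, and leaving out each of the 5 other stages in turn, chosen after seeing the data, moved 5 of 50. The sums of the members under other scalings were also added after seeing the data. The structural RNAs made up between 31.8% of the total in DE and 50.9% in PH, and the levels of all other genes depend on that share. The cause of these changes was not tested. No paired analysis was possible because each stage has only its mean, although replicate numbers recur across stages, and for the same reason no replicate could be left out. Values under 1 TPM have no known precision.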

Other observations

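The genes most like each member were listed again among the 3280 of them whose highest and lowest stage differed at least 4-fold, a limit chosen after the data were seen. For GATA6 they were LAMA1, DERA, MFGE8, LHFPL2 and ERF. LHFPL2 had 159.1 TPM in DE against 6.50 TPM in PH. For GATA4 they were SLCO2A1, HSD17B14, FOXA2, EGFLAM and DNMBP, and EGFLAM, a matrix protein, had 19.0 TPM in DE against 2.61 TPM in SC-β organoids. For GATA3 they were PPFIBP1, CFAP221, PBXIP1, TLE6 and CYP27A1, and TLE6 was at 19.0 TPM in DE against 0.715 TPM in hESC. For GATA5 they were PABPC4L, ID1, DGKB, PSTPIP2 and ENPEP, and DGKB, a diacylglycerol kinase, was at 24.3 TPM in PGT against 0.125 TPM in PP. For GATA2 they were TSC22D2, TFF1, CLMN, DAB2 and CKMT2. DAB2, an endocytic adaptor, was at 87.4 TPM in SC-β organoids and 10.6 TPM in PP, and TFF1, a peptide of gastric mucus, was at 19.9 and 0.0915 TPM.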
